A study of Sus scrofa with 6 samples.

Results

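Ubiquitin ligases of the cullin-RING type recognise their substrates through exchangeable receptor subunits, and 3 families of such receptors were examined here in pig skeletal muscle. F-box proteins (FBXO, FBXL and FBXW) bind SKP1 and through it the scaffold CUL1, ASB proteins bind elongins B and C through a SOCS box and reach CUL5, and KLHL proteins bind CUL3 directly through a BTB domain. Muscle expresses several of these receptors at high levels, and individual ones are known for turnover of sarcomere proteins and of insulin signalling proteins. Genes were chosen by symbol alone, as those named FBXO, FBXL, FBXW, ASB or KLHL followed by a digit, without *FBXO32* and *FBXO30*, and with 10 or more counts in at least 3 of the 6 pigs. The count table held 101 genes with such symbols, of which 86 met the count rule (40 F-box, 16 ASB and 30 KLHL genes) out of 30476 genes in all.

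The samples were longissimus dorsi, the long muscle beside the spine, from 3 UCP1 KI and 3 WT pigs of 6 months, each sequenced as 1 library and named KI1 to KI3 and WT1 to WT3 by replicate number. The UCP1 KI pigs carry a knocked-in *UCP1*, the uncoupling protein of brown fat, that is restricted to adipocytes, so the muscle fibres of these pigs are not the cells in which the transgene is meant to act. Counts of *UCP1* were not used here, so the genotype of each pig rests on its label. The comparison asks whether muscle transcripts differ in pigs whose fat expresses *UCP1*.

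Counts on genes summed to between 30220951 and 35066624 per pig, and were scaled with TMM factors between 0.781 (WT2) and 1.18 (KI2) into CPM, the reads of a gene per 1000000 scaled reads. The 20 most abundant genes took 56.5% of the counts in WT2 and between 39.0% and 44.8% in the other pigs. Markers of muscle fibres (5 of 8 found by symbol, among them *ACTA1* and *CKM*) summed to between 49500 and 77600 CPM in UCP1 KI pigs and between 63800 and 77500 CPM in WT pigs, and none was at 0. Of 6 fibroblast markers, 4 were lower in UCP1 KI pigs past the limits given below, and their sum lay between 235 and 435 CPM against 742 to 1190 CPM in WT pigs. The sum of 4 red blood cell markers was between 11.6 and 76.5 CPM in UCP1 KI pigs and between 106 and 181 CPM in WT pigs, with 1 of the 4 past the limits. Sums of the adipocyte, endothelial, leukocyte and Schwann cell markers overlapped between the genotypes, and 0, 1, 1 and 0 of their tested genes passed. The part of these other cells in the values below was not tested, and in whole muscle a smaller share of a cell type cannot be told from less RNA per cell.

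The receptors passed the limits of the study about as often as genes did in general. A gene passed both limits if its log2 fold change exceeded 0.5 in size and its p before adjustment was under 0.05 (edgeR, quasi-likelihood). By this, 6 of the 86 receptor genes passed (6.98%), against 8.19% of the 13402 genes tested. *FBXL8*, *FBXL12*, *FBXL18* and *KLHL22* were higher in UCP1 KI pigs and *FBXO39* and *KLHL42* were lower, so that 4 genes passed upwards (background 3.84%) and 2 downwards (background 4.34%). After Benjamini-Hochberg adjustment over all genes, 0 of the 86 had an adjusted p under 0.05 in edgeR (background 0%) or in DESeq2 (background 0.769% on all genes with any count). An unadjusted p under 0.05 was held by 6 in edgeR (background 8.21%), and 8 passed both limits in DESeq2 on the same genes (background 9.79%). The smallest adjusted p from edgeR was 0.583. The median log2 fold change of the 86 genes was 0.00 and that of all genes -0.02, with 44 values above 0 and 42 below. Values between the lower and upper quartile spanned -0.32 to 0.32 for the receptors and -0.36 to 0.30 for all genes.

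When libraries were scaled by their totals only, without TMM factors, the median of all genes moved from -0.02 to 0.24 and that of the receptors to 0.25. The receptors then passed 7 times upwards and 1 time downwards, and among all genes the share of passing genes that were higher went from 46.9% to 82.7%. Single pigs moved these small counts as well. Without KI1, KI2 or WT2, 2 receptors passed upwards, without KI3 4, and without WT1 or WT3 6. Downwards, 3 passed without KI1, 2 without WT3, 1 without KI2, KI3 or WT1, and none of the 86 without WT2. The share of all genes past both limits moved too, to 6.74% without KI1, 4.92% without KI2, 8.33% without KI3, 7.84% without WT1 and 5.19% without WT2, and to 1541 of 13864 genes without WT3.

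The 3 families had similar centres. F-box genes had a median log2 fold change of 0.00 with 4 of 40 past both limits, ASB genes -0.01 with 0 of 16, and KLHL genes 0.00 with 2 of 30. The background was 8.19%. Of the F-box genes, 3 of 14 with leucine-rich repeats (FBXL, *FBXL18* among them), 1 of 21 FBXO genes and 0 of 5 FBXW genes passed, and the difference between these subfamilies was not tested. The receptors known from skeletal muscle, a list of 26 symbols of which 24 were measured, also had 0 past both limits, with a median of 0.05. The counts of the families followed single pigs: F-box genes past both limits numbered 2 without KI2 and 1 without WT2, KLHL genes 0 without KI1 or WT2, 1 without KI2 and 4 without WT3, and ASB genes 1 without KI1, WT1 or WT2.

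**Figure D1:**
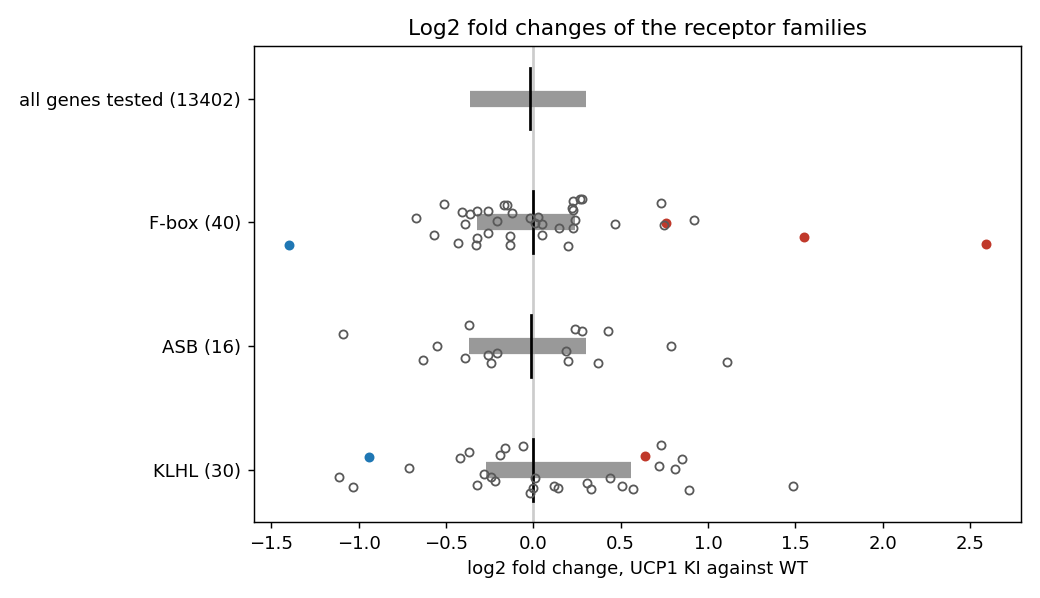
Log2 fold change (UCP1 KI against WT, x axis) of each receptor gene by family (y axis, number of genes tested in brackets). Grey bars span the lower to the upper quartile and black lines mark medians, also for all genes tested, red and blue filled points are genes higher or lower past both limits, and open points are the others. The medians of the families sit between -0.01 and 0.00, beside -0.02 for all genes.

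Of the F-box genes that passed, the smallest standard error was that of *FBXL12* (ENSSSCG00000013670, chromosome 2, 68692994 to 68701917 in Sscrofa11.1), which encodes a leucine-rich repeat receptor known for the cell cycle inhibitor CDKN1C. Its levels were 4.43, 4.80 and 4.82 CPM in KI1 to KI3 and 2.78, 2.59 and 2.90 CPM in WT1 to WT3. All UCP1 KI pigs were above all WT pigs, by more than the spread within either group. The log2 fold change was 0.76 (SE 0.27, adjusted p = 0.583 from edgeR), and it was 0.73 without KI2 and 0.72 without WT2, and missed the p limit both times.

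*FBXL8* (ENSSSCG00000002793, chromosome 6, 27803581 to 27813404) was counted at 1.33, 1.12 and 1.27 CPM in the UCP1 KI pigs and 0.441, 0.219 and 0.601 CPM in the WT pigs, from 40 to 48 and 6 to 18 counts. The groups did not overlap, and the lowest value was that of WT2. Here the log2 fold change was 1.55 (SE 0.51, adjusted p = 0.583 from edgeR), and it missed the p limit without KI1 (1.5) and without WT2 (1.25). In the RefSeq annotation the span of this gene overlaps that of *TRADD*, and reads from overlapping genes may not be separable in these counts.

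*FBXL18* (ENSSSCG00000038526, chromosome 3, 4031784 to 4079605), whose protein is known to target another F-box protein, FBXL7, had 38, 37 and 26 counts in KI1 to KI3 but 4, 0 and 11 counts in WT1 to WT3. Scaled, they were 1.23, 1.04 and 0.689 CPM against 0.110, 0 and 0.367 CPM. The 3 UCP1 KI pigs were enough to meet the count rule, and of the WT pigs WT3 alone reached 10 counts. Its log2 fold change of 2.59 (SE 0.96, adjusted p = 0.583 from edgeR) rests on a WT group near the limit of the depth. In the WT pigs 3 counts equal 0.0827 to 0.110 CPM. The gene missed the p limit without KI1 (2.41), KI2 (2.56) or WT1 (2.39). The largest moves were to 3.97 without WT3 and 2.04 without WT2, where it passed. *FBXL7* was at 5.05, 6.09 and 4.16 CPM in UCP1 KI pigs and 10.9, 5.0 and 3.70 CPM in WT pigs, and the groups overlapped.

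*KLHL22* (ENSSSCG00000010108, chromosome 14, 50773917 to 50809991) encodes a CUL3 receptor for the mitotic kinase PLK1 and for DEPDC5, a restraint on mTORC1. It stood at 12, 12.3 and 16.4 CPM in UCP1 KI pigs and 7.47, 7.74 and 11.0 CPM in WT pigs. The highest WT pig, replicate 3, was just below the lowest UCP1 KI pig. With a log2 fold change of 0.64 (SE 0.27, adjusted p = 0.608 from edgeR) the gene was at the edge of the p limit, and it did not pass without any one of KI1, KI2 and KI3 (0.72, 0.69 and 0.48), WT1 (0.53) or WT2 (0.56), nor on all genes with any count in edgeR (0.66) or DESeq2 (0.64).

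*FBXO39* (ENSSSCG00000017886, chromosome 12, 50635915 to 50723841) was at 8.80, 9.26 and 6.65 CPM in UCP1 KI pigs and 10.2, 39.3 and 15.8 CPM in WT pigs. The groups did not overlap, but WT2 stood far above the other pigs. The log2 fold change was -1.40 (SE 0.49, adjusted p = 0.583 from edgeR), became -0.66 without WT2 and -1.27 without KI3, and missed the p limit in both cases. *XAF1* and *SLC13A5* overlap this span in the annotation.

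*KLHL42* (ENSSSCG00000000545, chromosome 5, 45929854 to 45954887), a CUL3 receptor reported for the microtubule-severing protein katanin, was at 1.1, 1.26 and 0.795 CPM in UCP1 KI pigs and 2.04, 2.37 and 1.64 CPM in WT pigs. No pig crossed between the genotypes, and UCP1 KI was the lower one. The log2 fold change of -0.94 (SE 0.39, adjusted p = 0.603 from edgeR) did not pass without any one of the UCP1 KI pigs (-0.97, -1.1 and -0.77), without WT1 (-0.93) or WT2 (-0.81), with library totals only (-0.67), or on all genes with any count in edgeR (-0.92) or DESeq2 (-0.93).

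**Figure D2:**
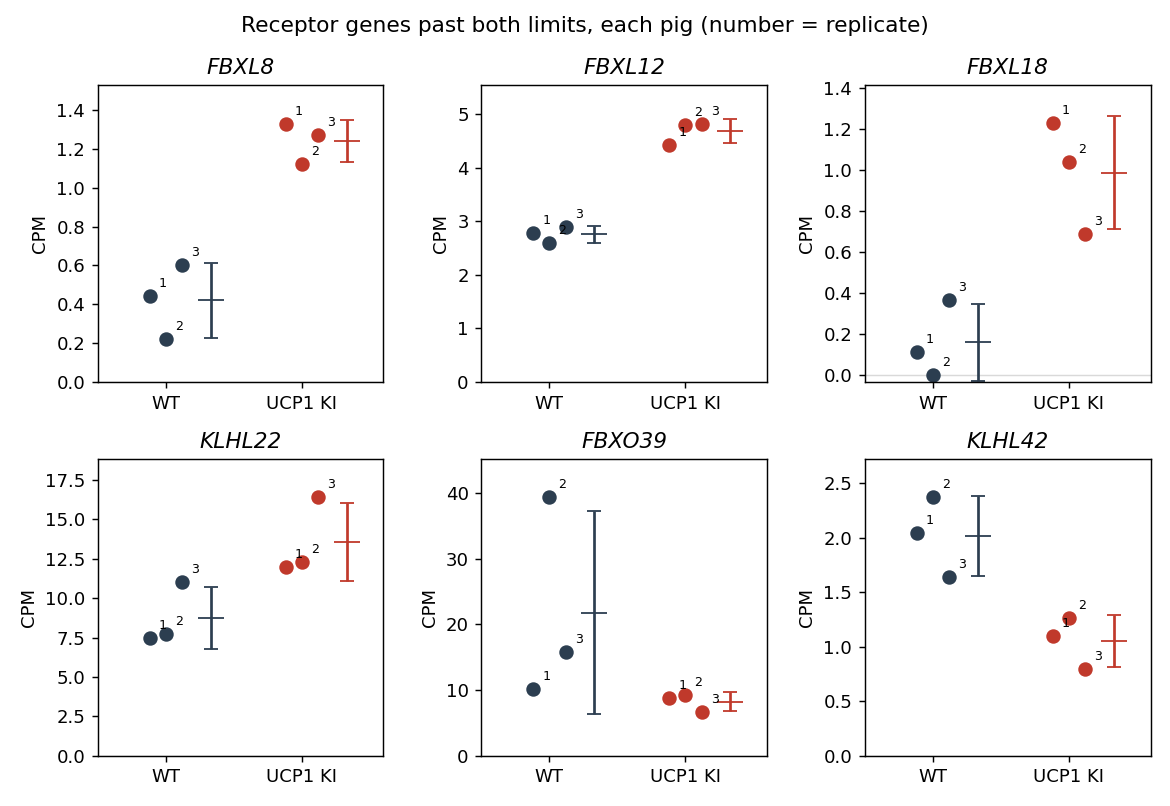
CPM (y axis) of the 6 receptor genes past both limits in each pig (points, numbered by replicate) with the mean and SD of each group (n = 3, bar to the right). The groups do not overlap in any panel, and the WT mean of *FBXO39* is raised by WT2 at 39.3 CPM.

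A complete separation of the 3 UCP1 KI pigs from the 3 WT pigs was seen in 15 of the 86 genes (17.4%), beside 15.3% of all genes tested. Of these, 8 were higher in UCP1 KI pigs (background 7.59%) and 7 lower (background 7.69%). For each of the 15, a two-sided exact permutation test on log2(CPM + 1) gave p = 0.1, below which groups of 3 cannot go. Complete separation fixes this p in advance, so it adds nothing to the separation itself. Besides the 6 genes above, they were *ASB2*, *KLHL8*, *KLHL30* and *KLHL36* on the higher side and *ASB3*, *FBXO11*, *FBXO21*, *KLHL10* and *KLHL15* on the lower side.

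*ASB2* (ENSSSCG00000002467, chromosome 7, 115210885 to 115258863) had the largest difference in CPM among them. ASB2 is known for driving filamins and desmin to the proteasome and for its effect on muscle mass. It was measured at 412, 360 and 501 CPM in UCP1 KI pigs and 71.9, 292 and 226 CPM in WT pigs, that is 424 ± 71.1 CPM against 197 ± 113 CPM (SD, n = 3). WT1 lay well below the other 5 pigs, which ranged from 226 to 501 CPM. A log2 fold change of 1.11 (SE 0.48) missed the p limit in edgeR (adjusted p = 0.610), and on all genes with any count it passed in edgeR (1.13) and in DESeq2 (1.11). DESeq2 on the same genes gave 1.1 and passed, and *ASB2* also passed with library totals only (1.45), without WT1 (0.70) and without WT2 (1.51).

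*KLHL30* (muscle-expressed, ENSSSCG00000026600) was at 41.8, 40.9 and 54.9 CPM in UCP1 KI pigs and 37.9, 16.6 and 28.7 CPM in WT pigs. It did not pass at a log2 fold change of 0.72 (SE 0.33), but did at 1.01 without WT1, and was 0.46 without WT2. *KLHL36* was at 8.09, 11 and 10.2 CPM against 2.59, 6.46 and 6.77 CPM. Its log2 fold change of 0.89 (SE 0.39) missed the p limit in edgeR and passed in DESeq2 on the same genes, and the gene also passed on all genes with any count in edgeR (0.91) and DESeq2 (0.89), without WT3 (1.12) and with library totals only (1.22). Without WT1 it was 0.56 and did not pass. For *KLHL8* the log2 fold change was 0.51 (SE 0.32). These genes separated the genotypes without passing the p limit in the main edgeR test on all pigs.

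On the lower side, *FBXO21* encodes a receptor of the FoxO-controlled atrophy program in muscle. It was at 27.9, 24.0 and 34.1 CPM in UCP1 KI pigs and 50.6, 36.0 and 36.0 CPM in WT pigs, with a log2 fold change of -0.51 (SE 0.25). *FBXO11*, a receptor known for the transcription factor BCL6, was at 29.0, 34.0 and 35.5 CPM against 40.6, 43.5 and 47.3 CPM (-0.41, SE 0.21). The values of *FBXO11* were narrow within each genotype, and the fold was under the limit. *ASB3*, at 8.50 to 8.98 CPM against 10.3 to 10.8 CPM, showed the same pattern with a log2 fold change of -0.26. *KLHL15* was at -0.42, and *KLHL10*, a gene known from spermatids, was at -1.03 with 9 to 16 counts in UCP1 KI against 20 to 33 counts in WT. The spans of *KLHL10* and its neighbour *KLHL11* overlap in RefSeq, and *KLHL11* had a log2 fold change of 0.00. The separation of these genes was judged on TMM-scaled CPM alone. With library totals only, the log2 fold change was -0.28 for *FBXO21*, -0.14 for *FBXO11* and -0.01 for *ASB3*. It was then -0.16 for *KLHL15* and -0.81 for *KLHL10*. Without WT1, *FBXO21* was at -0.34.

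*ASB2* apart, the pigs of both genotypes overlapped in each ASB gene of muscle. *ASB5*, known from activated satellite cells, was at 618, 1300 and 301 CPM in UCP1 KI pigs and 587, 378 and 679 CPM in WT pigs. KI2 held the highest value of *ASB5* and KI3 the lowest, so the WT pigs lay between them, and the log2 fold change of 0.43 (SE 0.53) turned to -0.25 without KI2. *ASB18* was at 14.6, 27.7 and 4.79 CPM against 29.8, 5.11 and 4.97 CPM, highest in WT1 and KI2, with KI1 between these and the other pigs. Its log2 fold change of 0.24 (SE 0.84) lay between -0.46 and 1.63 with a pig left out.

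*ASB15*, a gene linked to muscle growth, was at 23.2, 24.1 and 43.4 CPM in UCP1 KI pigs and 19.7, 29.0 and 3.84 CPM in WT pigs, where WT3 was the lowest pig. The log2 fold change of *ASB15*, 0.79 (SE 0.64), was 0.32 without WT3, 0.42 without KI3 and 1.36 without WT2. *ASB12* was at 37.0, 6.65 and 17.2 CPM against 18.5, 65.7 and 45.5 CPM. This difference of -1.09 (SE 0.65) passed only without KI1 among the pigs left out (-1.85), and was -0.67 without KI2 and -0.66 without WT2. *ASB16* was at 77.1, 26.1 and 100 CPM against 51.3, 94.2 and 121 CPM. *ASB11* was the steadiest of the muscle ASB genes, at 59.5 to 80.5 CPM in UCP1 KI pigs and 54.6 to 72.8 CPM in WT pigs, with a log2 fold change of 0.19 (SE 0.24) that lay between 0.08 and 0.31 with a pig left out.

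The groups overlapped for *ASB4* (-0.63), *ASB10* (-0.24) and *ASB14* (-0.55). Without WT3 these values were -0.16, 0.15 and -0.07, and without KI2 they were -0.33, 0.08 and -0.24. In all 5 of *ASB4*, *ASB10*, *ASB12*, *ASB14* and *ASB16*, KI2 held the lowest value of the 6 pigs, and these 5 were picked for it. The other measured ASB genes of muscle went otherwise. *ASB2*, *ASB11* and *ASB15* were lowest in WT pigs, *ASB5* and *ASB18* in KI3, and *ASB5* was highest in KI2. The summed fast fibre markers (5 of 8 found by symbol) were also lowest in KI2, at 14800 CPM against 29200 to 75000 CPM in the other pigs. The part of fibre type in these values was not tested. Over the 86 genes, KI2 was the lowest pig 23 times (26.7%, beside 17.7% of all genes), and KI3 the highest 24 times (27.9%, beside 19.2%).

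Among the KLHL genes of the sarcomere, *KLHL40*, which stabilises nebulin and leiomodin in the thin filament, was at 732, 631 and 136 CPM in UCP1 KI pigs and 343, 378 and 385 CPM in WT pigs. The WT pigs were close together, and the UCP1 KI pigs lay on both sides of them. Its log2 fold change of 0.44 (SE 0.55) was 0.89 and passed without KI3, and was 0.06 without KI1 and 0.25 without KI2. *KLHL31*, known to bind filamin C in muscle, was at 384, 235 and 356 CPM against 308, 288 and 590 CPM, a log2 fold change of -0.28 (SE 0.37) that was 0.13 without WT3.

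*KLHL38* was at 36.0, 28.3 and 240 CPM in UCP1 KI pigs and 16.2, 28.8 and 63.6 CPM in WT pigs. KI3 alone set its log2 fold change of 1.49 (SE 0.87), which was -0.16 without that pig and passed in DESeq2 on all genes with any count (1.48). *KLHL33* was at 24.1, 3.11 and 62.4 CPM against 26.1, 33.3 and 34.2 CPM, and its log2 fold change of -0.06 became 0.22 with library totals only. *KLHL21*, a receptor for the mitotic kinase Aurora B, was at 81.8, 71.6 and 53.7 CPM against 23.7, 27.7 and 63.8 CPM (0.85, SE 0.41). WT3 was the pig that made the groups of *KLHL21* overlap, and without it the value was 1.43 and passed, while with library totals only it was 1.09 and also passed. Without WT1 it was 0.60. *KLHL34* was low, at 1.09 to 3.79 CPM and 1.75 to 4.13 CPM.

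Of the F-box genes of muscle, *FBXO40*, the muscle-restricted receptor of the insulin receptor substrate IRS1, was at 120, 50.3 and 156 CPM in UCP1 KI pigs and 70.8, 63.8 and 180 CPM in WT pigs. *FBXO31*, a receptor known for cyclin D1, was at 144, 63.3 and 153 CPM against 112, 80.8 and 157 CPM. Both had a log2 fold change of 0.05, and in both the ranges of the genotypes overlapped. *FBXL22*, known from the cardiac sarcomere, was near the count minimum with 6 to 27 counts, and its log2 fold change of -0.02 was 0.18 with library totals only. *FBXW7*, the receptor for MYC and cyclin E, was at 7.44, 21.9 and 24.3 CPM against 53.0, 10.5 and 6.94 CPM, and its log2 fold change of -0.39 was 1.02 without WT1. *FBXL4*, a mitochondrial receptor that restrains mitophagy, was at 13.8, 12.3 and 49.5 CPM against 12.1, 20.9 and 29.3 CPM, with a log2 fold change of 0.28 that was -0.66 without KI3.

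**Figure D3:**
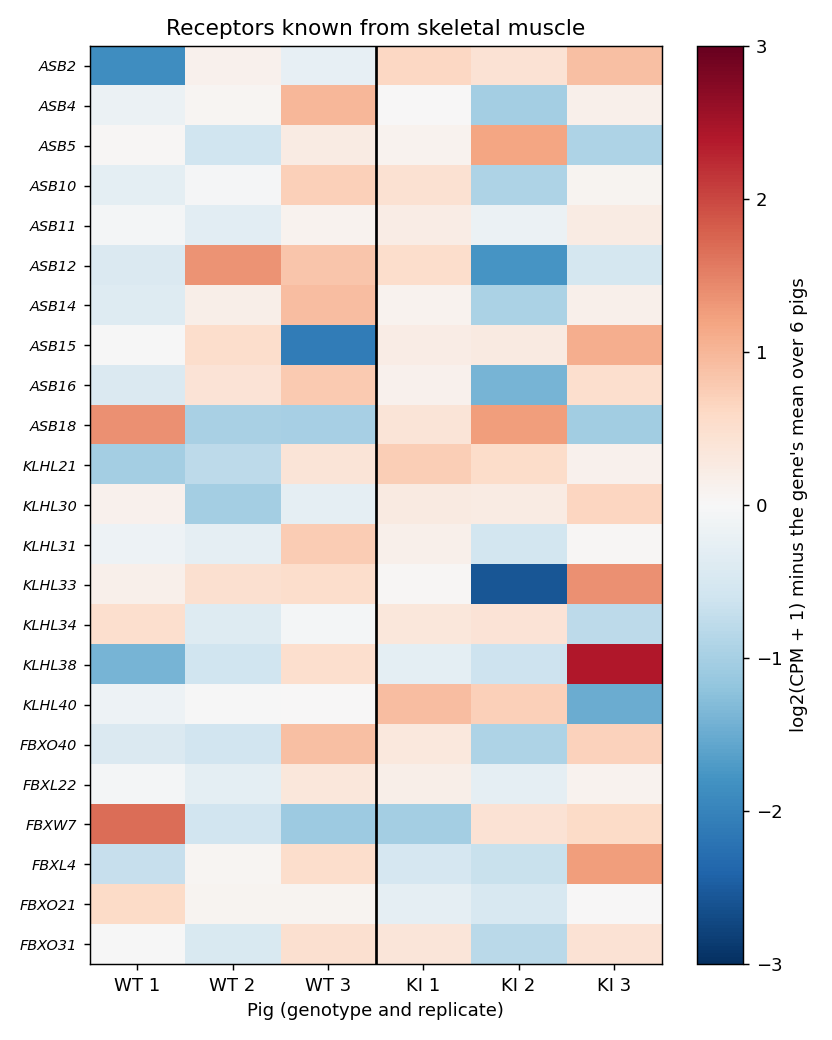
Heat map of 23 measured receptors known from skeletal muscle (rows) in each pig (columns, WT left and UCP1 KI right). Colour gives log2(CPM + 1) minus the mean of the gene over the 6 pigs. *ASB2* is lowest in WT1 (71.9 CPM), and *KLHL38* is highest in KI3 (240 CPM).

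Some receptors changed by several fold between single pigs without following the genotype. These genes were picked after their values were seen and are given as a description. *FBXO42* was at 0.614 CPM in KI1 and between 11.9 and 19.3 CPM in the other 5 pigs.

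*KLHL29* was at 35.7 CPM in KI3 and between 3.25 and 12.2 CPM in the other pigs. *KLHL23* was at 9.06, 0.954 and 5.51 CPM in UCP1 KI pigs and 3.50, 15.9 and 14.1 CPM in WT pigs. *FBXO28* was at 7.23 CPM in WT2 and between 26.0 and 32.4 CPM elsewhere. *FBXL5*, an iron-sensing receptor for the iron regulatory protein IREB2, was at 11.4 CPM in KI3 and between 36.9 and 48.6 CPM elsewhere. *KLHL17* was counted 0 times in KI2 and in WT3 and between 31 and 105 times in the other pigs. In each of these genes 1 or more pigs stood apart in a way that the genotype did not follow. Of 84 receptors with more than 3 counts in every pig, 17 (20.2%) differed by at least 5-fold between the highest and the lowest pig. The share was 15.1% of all genes with such counts. In 14 of the 17 the genotypes overlapped. Overlap was also the common case among all genes tested, of which 15.3% separated the genotypes. The median ratio of the highest to the lowest pig was 2.61 for the receptors and 2.31 for all genes.

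**Figure D4:**
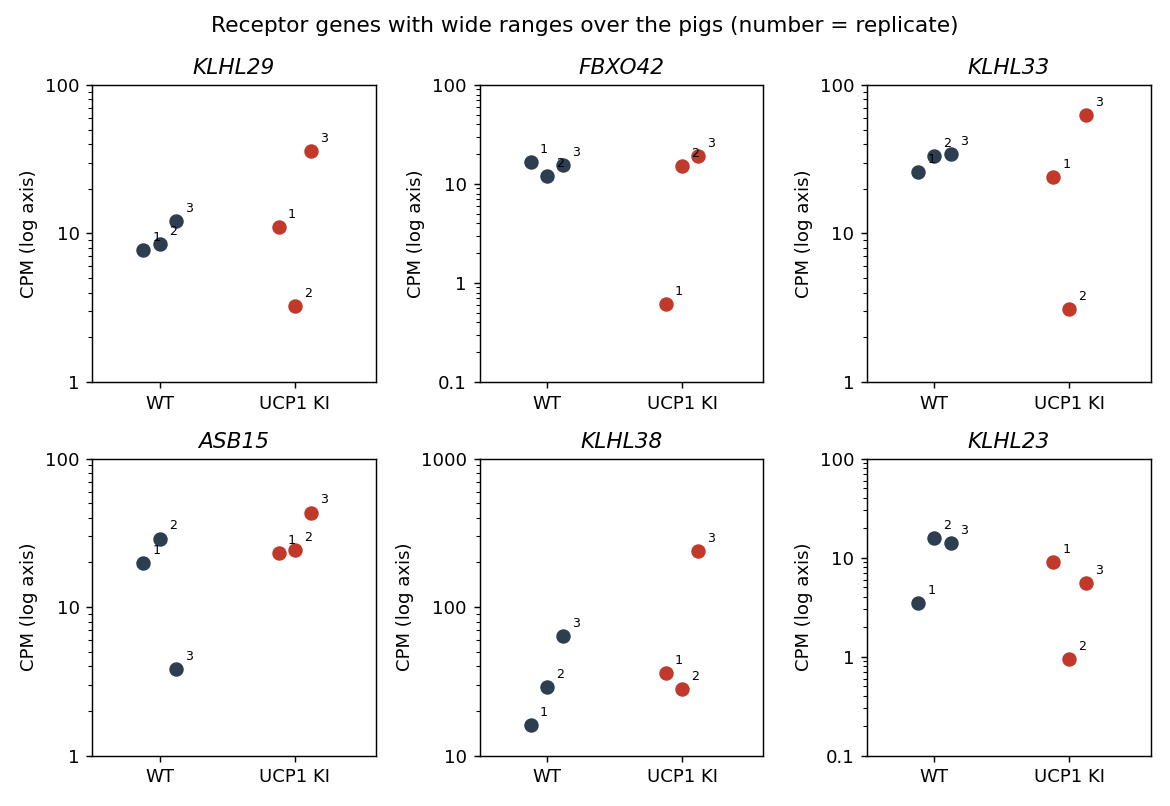
CPM on a log axis (y axis) of 6 receptors with a wide range over the pigs, chosen after their values were seen, in WT and UCP1 KI pigs (points numbered by replicate). *FBXO42* is low in KI1 alone (0.614 CPM), and *KLHL29* and *KLHL38* are highest in KI3 (35.7 and 240 CPM).

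Receptors act within a shared scaffold, and 39 of 42 listed genes of the cullin-RING core were measured. Of these, 2 passed both limits upwards and 0 downwards (5.13% in all, beside 8.19% of all genes), with a median log2 fold change of 0.05. The count of 2 was 0 without WT1 and 1 without KI1 or WT2. *SKP1*, the adaptor that links F-box proteins to CUL1, was at 143, 117 and 134 CPM in UCP1 KI pigs and 52.0, 75 and 101 CPM in WT pigs. The groups of *SKP1* did not overlap, and its log2 fold change of 0.79 (SE 0.29, adjusted p = 0.583 from edgeR) did not pass without KI1 (0.73), KI3 (0.78), WT1 (0.57) or WT2 (0.78). *CUL4A*, the scaffold of another ligase class, was at 66.4, 51.3 and 95.2 CPM against 30.4, 22.7 and 51.4 CPM. It passed at 1.03 (SE 0.37) although KI2 lay just below WT3, and it did not pass without KI3 (0.76), WT1 (0.93) or WT2 (0.79).

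The scaffolds of the receptor families did not pass. *CUL1* had a log2 fold change of 0.75 (SE 0.35), *CUL3* 0.06 (SE 0.40) and *CUL5* 0.20 (SE 0.33). The elongins *ELOB* and *ELOC*, which carry the ASB proteins, were at -0.27 and 0.07, and the RING subunits *RBX1* and *RNF7* at 0.04 and 0.03. *NEDD8*, whose attachment activates cullins, was at 0.03, and the measured genes of the COP9 signalosome that removes it lay between -0.08 for *COPS7A* and 0.62 for *COPS8*. The lowest value of the core was that of *DCUN1D2*, a NEDD8 ligase subunit, at -0.95 (SE 0.50).

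**Figure D5:**
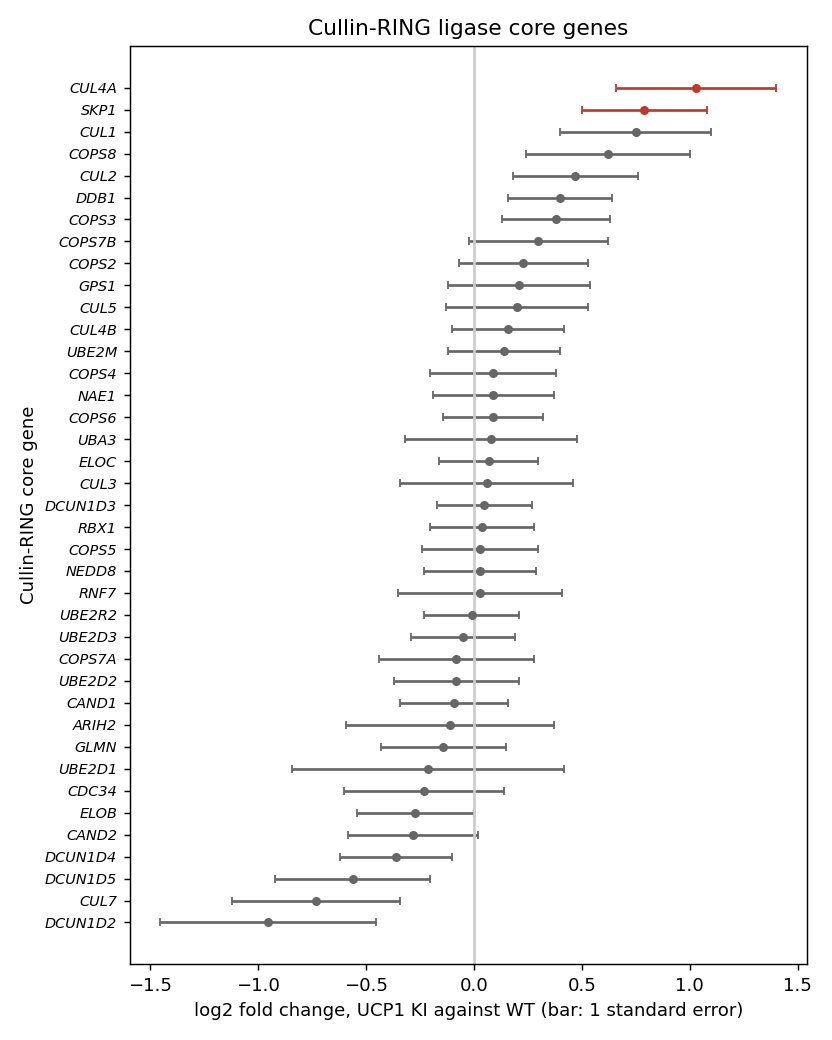
Log2 fold change (UCP1 KI against WT, x axis) of 39 cullin-RING core genes (y axis), with bars of 1 standard error from edgeR. Genes past both limits are red. *CUL4A* (1.03) and *SKP1* (0.79) passed, *CUL1* (0.75) did not, and most values lie near 0.

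Of 15 tested receptors of the same families that carry other symbols, 1 passed both limits (6.67%, beside 8.19% of all genes). This was *KBTBD12*, a kelch gene, at 21.8, 12 and 20.7 CPM in UCP1 KI pigs and 33.9, 28.0 and 49.9 CPM in WT pigs. The UCP1 KI pigs were all below the WT pigs (-1.04, SE 0.33), and the gene missed the limit without WT3 (-0.77) and with library totals only (-0.81). *KEAP1*, the CUL3 receptor for the oxidative stress factor NFE2L2, was at 74.3, 84.8 and 125 CPM against 47.5, 52.3 and 86.8 CPM (0.61, SE 0.33). Of 13 SOCS box genes outside the ASB family, 3 passed (23.1%, beside 8.19% of all genes). *CISH* (3.09, SE 0.46), a cytokine-induced inhibitor of STAT5 signalling, and *SPSB1* (1.28, SE 0.53) passed upwards, and *WSB1* (-0.81, SE 0.24) downwards. Their adjusted p from edgeR were 0.28, 0.603 and 0.583. The groups of *SPSB1* overlapped, at 6.37, 10.9 and 2.46 CPM in UCP1 KI pigs and 3.64, 2.12 and 2.34 CPM in WT pigs. *SPSB1* missed the limit without KI1 (1.31), either of WT2 and WT3 (1.14 and 1.19) or KI2 (0.71), and *WSB1* with library totals only (-0.58).

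Among 15 measured genes of proteins that these receptors are known to bind or degrade, 1 passed both limits (6.67%, beside 8.19% of all genes). *CRY1*, a repressor of the circadian clock, was at 8.05, 6.45 and 9.19 CPM in UCP1 KI pigs and 12.9, 15 and 18.4 CPM in WT pigs. The genotypes of *CRY1* were separate. Its log2 fold change was -0.97 (SE 0.26, adjusted p = 0.583 from edgeR) and was -0.70 with library totals only, where it did not pass. *CRY2* was at 77.6, 88.7 and 110 CPM against 35.0, 43.5 and 86.1 CPM (0.75, SE 0.37). *DES*, the desmin gene, had a log2 fold change of 0.72 (SE 0.40), *FLNC* -0.01, *NEB* -0.21 and *IRS1* -0.41, each with overlapping groups.

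Of the 101 genes with a matching symbol, 15 were left out by the count rule. *KLHL32* came nearest to it, with 31 counts in KI3, 13 in WT1 and 0 to 2 in the other pigs. Just inside the rule were genes with 10 or more counts in 4 pigs, namely *FBXL18*, *FBXL22*, *KLHL4* and *KLHL17*. *FBXO47* and *KLHL14* had 0 counts in every pig, where 3 counts would equal at most 0.110 CPM by counting error alone. *ASB8* and *KLHL41* had no identifier under their symbols and were not analysed here.

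All 86 genes were placed in the RefSeq annotation. Members with less than 1000000 bases between them were *KLHL11* and *KLHL10* on chromosome 12, *FBXO21* and *FBXW8* as well as *FBXW4* and *FBXL15* on chromosome 14, *KLHL30* and *ASB1* on chromosome 15, and *ASB9* and *ASB11* on chromosome X. In 4 of these 5 pairs the log2 fold changes had opposite signs, for example *KLHL30* (0.72) and *ASB1* (-0.21). The spans of 26 of the 86 genes overlap another annotated gene.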

How the data were processed

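Muscle RNA of each pig was made into 1 mRNA library and read from both ends (Illumina). Per the submitters' processing notes and the methods, reads were trimmed with Trimmomatic 0.36, mapped with HISAT2 2.0 to Sscrofa11.1 and passed to StringTie 1.3.3b. The authors deposited raw counts per gene, without normalization, and the counting program, its use of strand and the annotation release are not given in the sources used here. Counts were tested in R 4.3.3 with edgeR 4.0.16 (filterByExpr, TMM factors, quasi-likelihood F test, two-sided, genotype as the only term) on 13402 genes, with Benjamini-Hochberg adjustment over all of them. The limits (a log2 fold change over 0.5 in size, p under 0.05) are those of the study. SE is the absolute log2 fold change divided by the square root of F. CPM use TMM-scaled totals. Leaving out a pig leaves a group of 2 whose spread is pooled with the other group.

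Gene symbols were matched through Ensembl pig names, and positions are from RefSeq on Sscrofa11.1. The genes, lists and limits were chosen with earlier results of these data known. Text names every member past both limits, a list of 26 receptors known from muscle, and the members nearest to the count rule. Members that separated the genotypes or ranged widely were named after their values were seen. Alternatives were DESeq2 1.42.0, other scaling, other filters, the replicate number as a block, other member lists and each pig left out. The main test did not pair the pigs by replicate number, and 0 columns were unused. The values of 1 receptor are not reported here, although it is counted with the others. The procedure was tested on simulated data.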

Additional observations from a re-analysis of the deposited data

How the results depend on the processing

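No adjusted p of the 86 genes was under 0.05 under any alternative run. Library totals only gave a median of 0.25 for the receptors, 7 higher and 1 lower past both limits, and 1 ASB gene (8.39% of all genes passed). DESeq2 gave 1 ASB gene on either gene set and, on all genes with any count, 1 lower receptor. edgeR on all genes with any count gave 1 lower receptor, 1 ASB gene and 1 KLHL gene (6.78% of all genes passed). A minimum of 10 counts in every pig (80 of the 86 genes) gave 2 higher receptors and 2 F-box genes (8.47% of all genes passed). With each pig left out, the median lay between -0.13 and 0.07, higher receptors numbered 2 to 6, lower ones 0 to 3, F-box genes 1 to 4, ASB genes 0 to 1, KLHL genes 0 to 4 and core genes 0 to 3. The cause of these shifts was not tested.

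The pigs share a replicate number across genotypes, and the correlation of their deviations was 0.00383, 0.0943 and 0.283 for replicates 1 to 3. These were not all above 0.1, the limit set for pairing. Pairs with different numbers lay between -0.201 and 0.129. The main test had no replicate block, and 3 pigs per genotype cannot exclude a pairing. With the replicate block, 8 receptors were higher and 1 lower, with 1 ASB gene, 4 KLHL genes and 4 core genes. Of all genes, 8.31% passed with the block, 544 higher and 570 lower. The log2 fold changes of *KLHL34* (-0.10), *FBXL22* (0.07), *FBXW7* (0.21), *FBXO31* (-0.01) and *ASB1* (0.17) changed sign. The block also ended the call of *KLHL42* (-0.94) and of the SOCS box gene *SPSB1* (1.07), and *ASB2* (1.31), *KLHL30* (0.79), *KLHL36* (0.99) and *KLHL38* (1.02) passed with it. With library totals only, *KLHL33* (0.22) and *FBXL22* (0.18) changed sign and *FBXO42* moved to 0.00, without passing.

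Leaving out a pig changed the sign of 17 named receptors, with ranges of -0.25 to 0.80 for *ASB5*, -0.57 to 0.15 for *ASB10*, -0.46 to 1.63 for *ASB18*, -0.84 to 1.01 for *ASB1*, -0.38 to 0.62 for *FBXL22*, -0.66 to 0.62 for *FBXL4*, -0.83 to 1.02 for *FBXW7*, -0.16 to 0.35 for *FBXO31*, -0.29 to 0.69 for *FBXO40*, -0.21 to 0.56 for *FBXO28* and -0.90 to 0.24 for *FBXO42*. For the KLHL genes these were -0.47 to 0.13 (*KLHL31*), -1.19 to 0.45 (*KLHL33*), -0.27 to 0.41 (*KLHL34*), -0.16 to 2.18 (*KLHL38*), -0.09 to 1.72 (*KLHL4*) and -0.39 to 1.28 (*KLHL29*). The other receptors recomputed under the alternatives kept their sign. Counts under 10 in at least 1 pig limited the values of *FBXL18*, *FBXL8*, *FBXL22*, *KLHL4*, *KLHL10* and *KLHL17*.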
